A study of Mus musculus with 6 samples.

Results

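Genes of the mouse histocompatibility complex and of 2 families of interferon-inducible genes were followed in bone marrow stromal cells that lack Snai2. They were taken from the authors' deposited table as every gene whose symbol begins with H2-, together with Ifi203, Ifi204 and Iigp1. This gave 7 genes of the 1285 listed, 4 of them H2- genes (H2-DMb1, H2-Eb1, H2-Q5 and H2-T22). Each library was made from sorted MSPCs (mesenchymal stem and progenitor cells) of adult marrow, stroma that supports blood stem cells. About 2000 cells per library had been sorted as free of CD45, Ter119 and CD31, which mark leukocytes, erythroid cells and endothelium, and as positive for the nestin reporter Nes-GFP. The groups were 3 control and 3 Snai2-/- libraries from littermates aged 8 weeks, and Snai2 encodes the transcriptional repressor Slug. The genotype of the control littermates is given no further than that name. The Nes-GFP transgene marks both groups, so the cells compared are those with nestin promoter activity. The labels do not tie libraries to separate animals, and the spread behind the deposited p-values may be partly technical.

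Class I histocompatibility molecules display peptides from inside the cell to T cells, and class II molecules display peptides taken up from outside, mostly on professional antigen-presenting cells. The p200 proteins (also called PYHIN proteins) bind nucleic acids and take part in innate sensing and growth control, and immunity-related GTPases (IRGs) attack the vacuoles of intracellular parasites. Interferons induce members of all these families, through promoter elements bound by IRF and other factors and, for class II genes, by way of the regulator CIITA. In bone, p204, the product of Ifi204, is known as a partner of the osteoblast factor Runx2.

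Promoter sequence was available from RefSeq (GRCm38.p6) for 4 of the 7 genes, and the stretches shown hold matches to elements known from promoters of such genes. The first 3 are the 250 bases before the RefSeq start of each gene, 5′ to 3′ on the gene's own strand. The fourth is a 30-base stretch before the downstream of the 2 RefSeq starts of Ifi203. Capitals mark matches on either strand to the interferon-stimulated response element core (GAAA, any 2 letters, then GAAA) or to CCAAT, and in the class II genes also the longest run of letters that both share.
H2-T22 (chr17:36042743-36042992, minus strand): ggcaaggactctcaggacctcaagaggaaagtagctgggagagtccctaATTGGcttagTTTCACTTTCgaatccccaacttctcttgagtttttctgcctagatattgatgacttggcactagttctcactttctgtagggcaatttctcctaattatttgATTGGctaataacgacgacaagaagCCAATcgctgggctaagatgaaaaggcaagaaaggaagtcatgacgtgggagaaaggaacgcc
H2-DMb1 (chr17:34152941-34153190, plus strand): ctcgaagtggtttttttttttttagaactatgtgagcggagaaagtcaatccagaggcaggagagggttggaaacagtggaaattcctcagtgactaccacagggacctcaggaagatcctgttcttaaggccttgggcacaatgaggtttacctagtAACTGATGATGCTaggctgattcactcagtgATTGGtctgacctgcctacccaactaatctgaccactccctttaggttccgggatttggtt
H2-Eb1 (chr17:34305617-34305866, plus strand): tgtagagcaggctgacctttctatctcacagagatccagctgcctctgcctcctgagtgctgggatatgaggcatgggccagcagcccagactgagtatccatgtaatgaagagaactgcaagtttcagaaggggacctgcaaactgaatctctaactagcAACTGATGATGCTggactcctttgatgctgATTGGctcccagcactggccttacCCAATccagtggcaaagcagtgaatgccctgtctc
Ifi203 (chr1:173942508-173942537, minus strand): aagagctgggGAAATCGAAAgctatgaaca

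The response element core was found in H2-T22, from base -191 to base -182 before the start, on the strand opposite to the gene. In Ifi203 it lay from base -35 to base -26 before the downstream start and was not found before the upstream one. GENCODE M21 has Ifi203 reach base 173942672, so this site lies inside the gene as annotated there. Of all 32851 RefSeq windows of this length, 2.98% held the core. Among the windows of listed genes the share was 4.06% of 616 for genes with a lower mean in Snai2-/- cells. It was 3.28% of 609 for genes with a higher mean. These shares are given as a description with no test, and the 616 include the 5 windows of the 4 genes. CAGGTG, the E-box bound by Snail-family repressors, was found in none of the 5 windows of the 4 genes and in 17.2% of all windows. It was in 85 of the 616 windows of listed lower genes and in 134 of the 609 of listed higher genes, again with no test. A missing match says only that these letters are not in the window.

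The class II genes H2-DMb1 and H2-Eb1 shared a run of 13 letters, AACTGATGATGCT, from base -92 to base -80 in H2-DMb1 and from base -89 to base -77 in H2-Eb1. Of the 32851 windows, 2 held it, those of these genes. A CCAAT on the opposite strand, in capitals in both sequences, followed it from base -61 in H2-DMb1 and from base -59 in H2-Eb1. GENCODE M21 starts H2-DMb1 at 34153072, so in that gene both the run and this CCAAT lie inside the gene as annotated there. CCAAT on either strand was common, in 33.8% of all windows. Promoters of class II genes are known for an X box, bound by RFX factors, followed by a Y box, which is a reversed CCAAT. The run was looked for after the values of these genes were known.

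All 7 genes had a lower mean in Snai2-/- than in control cells. The table lists genes with an unadjusted p below 0.05, and 3.91% of the 16718 genes tested were listed with a lower mean, so the 7 were chosen from that share and their p-values are given as a description. Their ratios of Snai2-/- to control mean ran from 0.41 to 0.698 in the authors' deposited table. The median log2 ratio of the 7 was -0.82, beside -0.81 for all 654 genes listed as lower and -0.36 for all 1285 listed, of which 631 were higher (3.77% of genes tested). The median of the 7 therefore stood close to that of the listed lower genes in size of difference. Single genes ranked from 170 (Ifi204) to 527 (H2-T22) of the 654. None reached a false discovery rate (FDR, the adjusted p of the authors) of 0.05, as was true of every one of the 1285 listed genes (0% of those tested).

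**Figure D1:**
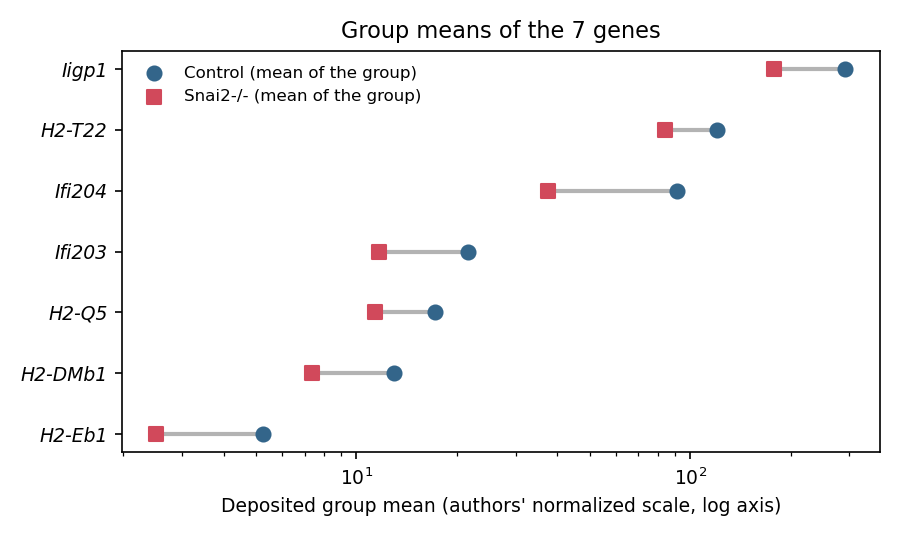
Group means of the 7 genes on the authors' normalized scale (log axis), with a circle for control and a square for Snai2-/- and a line joining the means of 1 gene. Each square lies to the left of its circle, and the gap is widest for Ifi204, 91.6 against 37.6.

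Values of single libraries were not analysed here, so no error or depth stands beside a mean and whether libraries of the groups overlap is not known. The sources used here give neither a unit nor a length correction for the normalized scale. Levels of different genes may not be comparable on it, and the low means, distances between genes and summed marker means below carry that limit. In bulk RNA, fewer cells expressing a gene and less of its RNA per cell cannot be told apart. The genotype check was clear in the group means, where the authors' deposited table puts Snai2 at 636 for control and at 9.20 for Snai2-/-.

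Ifi204 had the smallest p of the 7. It encodes p204, a p200 protein of the mouse with a pyrin domain and DNA-binding HIN domains. In the authors' deposited table its control mean was 91.6 and its Snai2-/- mean 37.6, or 2.44 times lower. Per the authors' deposited table, the unadjusted p was 0.000533 and the FDR 0.27. It ranked 33 of 1285 by p and 170 of the 654 lower genes by size of the difference. It was also the sole gene of the 7 with a p below 0.01, a limit passed in the lower direction by 0.969% of genes tested.

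Ifi203 encodes another p200 protein. The control mean in the authors' deposited table was 21.6 and the Snai2-/- mean 11.7, or 1.85 times lower, with an unadjusted p of 0.0103 and an FDR of 0.459. Both genes lie on the minus strand of chromosome 1, Ifi204 at 173747293 to 173766943 and Ifi203 at 173920407 to 173942672 (GENCODE M21 on GRCm38). Ifi203 lies for 99.2% of its annotated span, introns included, inside Mndal, a p200 gene on the same strand. RefSeq gives Mndal as a synonym of Ifi203, so some reads of these genes may not be separable. Their transcripts had less in common, with 3.34% of the 50-base words of Ifi203 transcripts also found in those of Mndal. Of the 13 p200 genes in the annotation, Ifi203 and Ifi204 were the 2 listed (15.4%, beside 7.69% of all genes tested that were listed in either direction). Both were chosen here from the listed genes, so this share is not independent of the choice, and without them 0 were listed. The DNA sensor gene Aim2 and Ifi202b, Ifi205 and Mndal were not listed, which means either a p of at least 0.05 or no test. The same holds for every unlisted gene named here. Each share of a list is over annotated genes, tested or not, so it is not like for like with a share of genes tested. No other gene was listed among the 22 annotated in the 0.681 Mb that the p200 genes span.

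Iigp1 encodes Irga6, an IRG protein that gathers on the vacuole of Toxoplasma. The authors' deposited table gives a control mean of 291.8 and a Snai2-/- mean of 178.0, or 1.64 times lower. Its unadjusted p of 0.0417 was the largest of the 7 and the nearest to the limit of the authors' deposited table, which gives it an FDR of 0.624. Of 14 IRG genes in the annotation it was the 1 listed (7.14% of annotated genes, beside 7.69% of all genes tested). Irgm1, Irgm2, Igtp, Tgtp1 and Tgtp2 were not listed. None of the 11 guanylate-binding protein genes, a related family of interferon-induced GTPases, was listed. None of the 21 other annotated genes within 500 kb of Iigp1, on chromosome 18, was listed.

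H2-T22 encodes a nonclassical class I molecule of the T region, known as a ligand of a subset of gamma-delta T cells. Control cells had a mean of 120.5 and Snai2-/- cells a mean of 84.1 per the authors' deposited table, which is 1.43 times lower, the smallest difference of the 7. Its unadjusted p was 0.0291 and its FDR 0.588, per the authors' deposited table. It lies on chromosome 17 at 36037128 to 36042747, minus strand. An antisense gene, A930015D03Rik, overlaps 23.3% of it on the other strand, and the library chemistry named in the labels does not mark the strand.

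H2-Q5 belongs to the Qa region of class I genes and is annotated as a polymorphic pseudogene, a gene intact in some mouse strains only. Per the authors' deposited table, the mean was 17.2 for control and 11.4 for Snai2-/-, or 1.52 times lower, with an unadjusted p of 0.0196 and an FDR of 0.529. It lies on chromosome 17 at 35394126 to 35397800, plus strand. Of all 50-base words in its annotated transcripts, 36.4% also occurred in transcripts of other genes, with H2-Q7 holding 25.5%.

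Of 31 class I chains and peptide-loading genes in the annotation, 4 were listed and 4 had a lower mean, which is 12.9% beside the 7.69% of all genes tested. Those beside H2-Q5 and H2-T22 were Tap1, which encodes a subunit of the peptide transporter, and Calr, the chaperone calreticulin. For Tap1, the authors' deposited table gives 109.0 in control and 81.7 in Snai2-/- cells (ratio 0.75, unadjusted p 0.0377). For Calr, the authors' deposited table gives 1078 and 834 in that order (ratio 0.774, unadjusted p 0.0161). The classical heavy chains H2-K1 and H2-D1, their partner B2m and the regulator Nlrc5 were not listed. The median log2 ratio of the 4 was -0.47. Without H2-Q5 and H2-T22, 2 of 29 were listed, or 6.9% of annotated genes, beside 7.69% of all genes tested.

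H2-DMb1 encodes a beta chain of H2-DM, the catalyst that exchanges peptides on class II molecules. It had a control mean of 13.0 and a Snai2-/- mean of 7.36 according to the authors' deposited table, or 1.77 times lower, with an unadjusted p of 0.0127 and an FDR of 0.473. H2-Eb1 encodes the beta chain of the class II molecule I-E. The authors' deposited table puts the control mean at 5.25 and the Snai2-/- mean at 2.52, or 2.09 times lower, with an unadjusted p of 0.0131. The means of H2-Eb1 are low on the deposited scale, and selection at p below 0.05 biases folds away from 1 most at low means. The genes lie on the plus strand of chromosome 17, H2-DMb1 at 34153072 to 34160230 and H2-Eb1 at 34305867 to 34316674. An antisense gene, Gm20513, overlaps 20.4% of H2-Eb1 on the other strand.

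Class II genes did not all lie on 1 side. Of 16 class II chain and peptide-loading genes, 3 were listed (18.8%, beside 7.69% of all genes tested), 2 lower and 1 higher. The 2 lower ones, H2-DMb1 and H2-Eb1, were chosen here from the listed genes, so this share is not independent of the choice. Without them, 0 were listed as lower and 1 as higher. The higher one was Ifi30, which encodes the interferon-inducible lysosomal thiol reductase GILT. Per the authors' deposited table, its control mean was 9.35 and its Snai2-/- mean 18.5 (ratio 1.98, unadjusted p 0.0104). The chains H2-Aa and H2-Ab1, the invariant chain Cd74, the master regulator Ciita and H2-DMa, the alpha partner of H2-DMb1, were not listed.

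**Figure D2:**
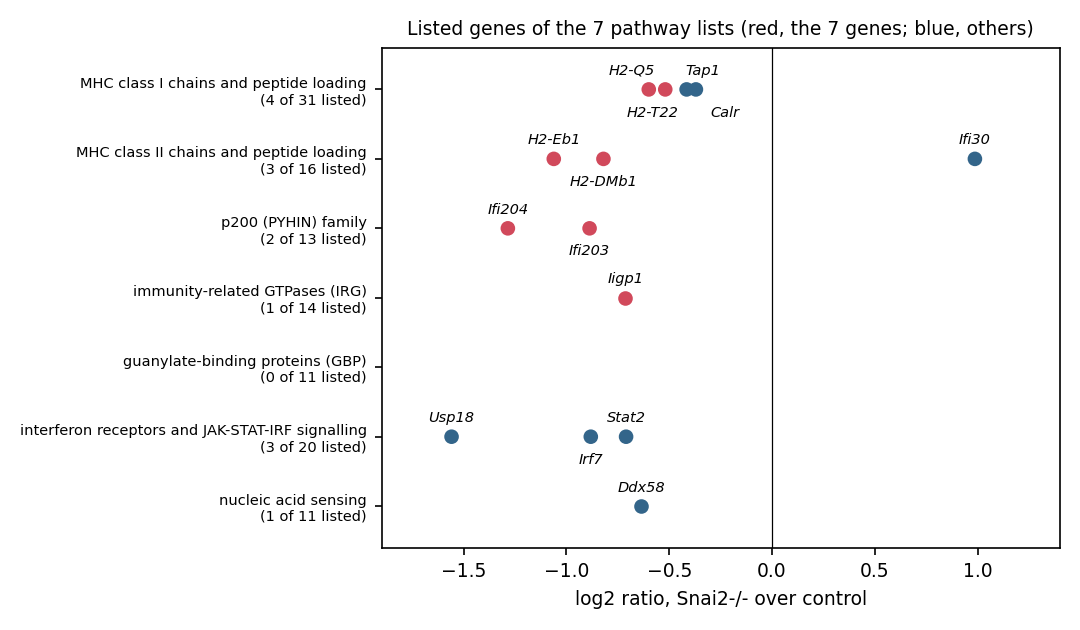
The log2 ratio (x axis) of every listed gene on 7 pathway lists (rows), with the 7 genes in red and other list members in blue. Of the 14 listed genes, 13 lie left of 0 and Ifi30 lies right of it.

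Upstream of these families, 3 of 20 genes of interferon receptors and their JAK, STAT and IRF signalling were listed (15%, beside 7.69% of all genes tested) and 3 had a lower mean. Stat2, a subunit of the type I interferon transcription factor complex, had a control mean of 39.2 per the authors' deposited table, with a ratio of 0.611 and an unadjusted p of 0.00534. Irf7, an amplifier of the type I response, had a control mean of 42.2 and a Snai2-/- mean of 22.9 per the authors' deposited table. Irf1, Irf9 and the receptor genes Ifnar1, Ifnar2, Ifngr1 and Ifngr2 were not listed. Of 11 genes that sense nucleic acids, 1 was listed (9.09%), Ddx58, which encodes the RNA sensor RIG-I, with a control mean of 45.3 and a Snai2-/- mean of 29.1 per the authors' deposited table. Over the 7 lists together, 14 of 116 annotated genes were listed (12.1%, beside 7.69% of all genes tested). Of these, 13 were lower and 1 higher, with a median log2 ratio of -0.71. Of the 13, 7 are the genes chosen here, so neither that count nor the share of 12.1% is independent of the choice. Without the 7 genes, 6 lower and 1 higher were listed.

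Position in the genome was not used in the choice beyond the H2- symbol. The 45 H2- genes of the annotation, 34 of them protein-coding, lie within 3.51 Mb of chromosome 17, from 33974659 to 37483552, and 4 were listed (8.89%, beside 7.69% of all genes tested). The same span holds 323 annotated genes, 173 of them protein-coding, and how many of the 323 were tested is not known. Of the 323, 14 were listed, a smaller share than the 7.69% of all genes tested, with 12 lower and 2 higher. Without the H2- genes these were 8 lower and 2 higher, with a median log2 ratio of -0.53, beside 654 lower and 631 higher in the whole table. The span was examined after the values were seen and no test was made of this split.

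**Figure D3:**
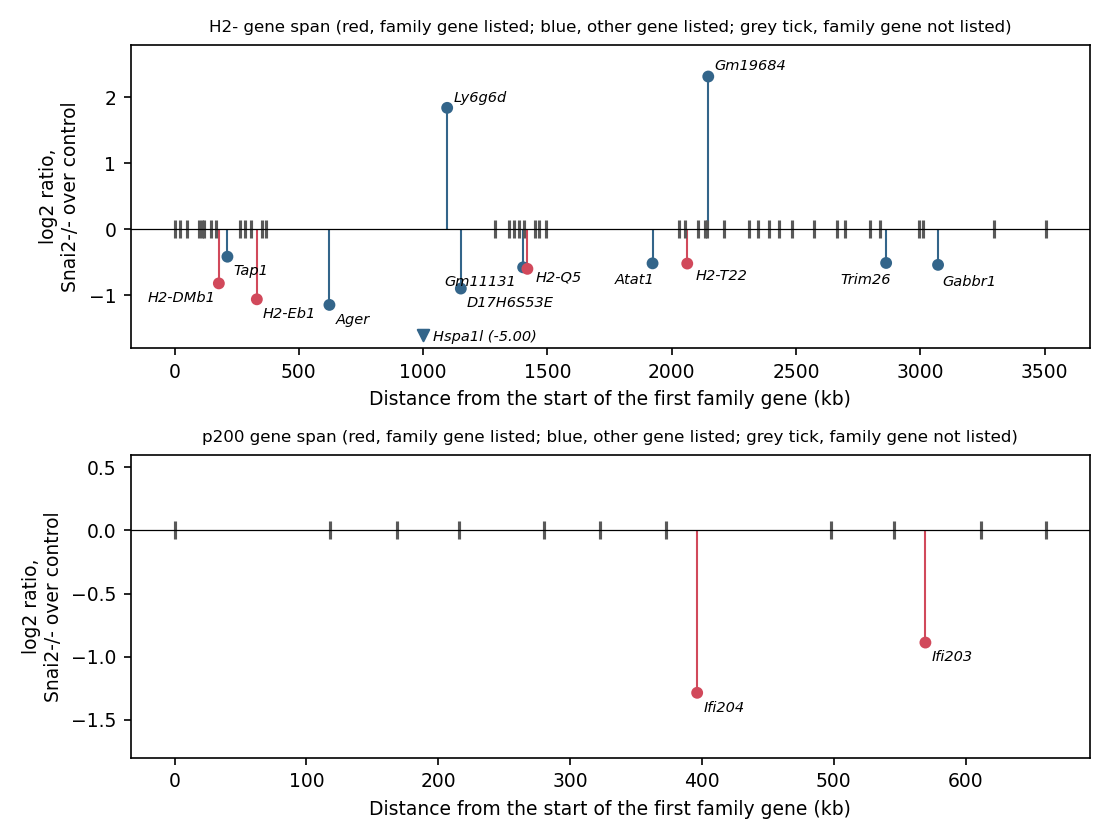
The log2 ratio of listed genes (y axis) by distance in kb from the first family gene (x axis) over the H2- span (upper panel) and the p200 span (lower panel), with listed family genes in red, other listed genes in blue and unlisted family genes as grey ticks. Listed H2- genes stand apart from each other among unlisted ones, and Hspa1l, at -5.00, is drawn at the lower edge.

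Listed genes within 500 kb of an H2- gene chosen here included Ager, which encodes the receptor RAGE. Ager had a control mean of 22.1 and a Snai2-/- mean of 9.97 per the authors' deposited table. For Cd320, the receptor for transcobalamin, the authors' deposited table gives 23.3 and 14.5 in that order. For Atat1, the acetyltransferase of alpha-tubulin, the authors' deposited table gives 15.3 and 10.7. D17H6S53E had a ratio of 0.536 and Gm11131 of 0.67, per the authors' deposited table. Hspa1l was near the bottom of the scale in both groups, at 0.531 and 0.0166 per the authors' deposited table. On the higher side were Angptl4, an inhibitor of lipoprotein lipase, with a ratio of 1.92, and Kank3 with 2.76, per the authors' deposited table. The authors' deposited table gives Ly6g6d a control mean of 1.47 and a Snai2-/- mean of 5.27, and Gm19684 a control mean of 0.332 and a Snai2-/- mean of 1.66.

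The share of sequence that a gene has in common with its relatives bears on how far its reads can be assigned. Of all 50-base words in the annotated transcripts of H2-T22, 34.5% also occurred in transcripts of another gene, mostly H2-T10. The share was 22.7% for H2-DMb1, all of it with H2-DMb2, and 703 of 3512 words for Ifi204, mostly with Ifi211. It was 12.2% for Ifi203 (8.85% with Ifi203-ps and 3.34% with Mndal), 1.69% for Iigp1 and 0% for H2-Eb1. H2-T10, H2-DMb2, H2-Q7 and Ifi211 were not listed themselves. The sources used here do not say how reads that match several genes were counted, and this bears on all of these genes but H2-Eb1, whose values carry the limits of low means and an antisense overlap instead.

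**Figure D4:**
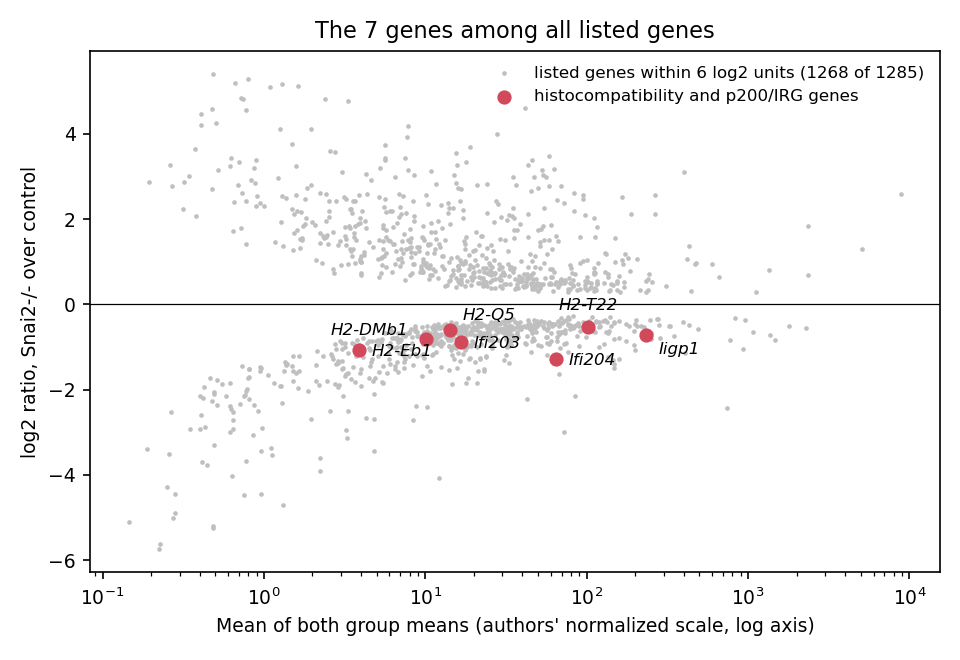
The log2 ratio (y axis) against the mean of both group means (x axis, log) for listed genes within 6 log2 units (grey) and the 7 genes (red). The 7 lie below 0 along the band of lower genes, and Ifi204, at -1.29, lies lowest of them.

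With 1 mean per group, likeness between genes can be measured only by level and ratio. The listed genes nearest to Ifi204 in log2 ratio and log2 mean were Fam43a, Rtp4 and Col16a1, at distances of 0.213, 0.27 and 0.299. Those nearest to Ifi203 were RP23-111G16.8, Robo1 and Klhdc8b, at distances of 0.0811, 0.107 and 0.113. These are distances over 2 group means, not profiles over libraries.

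Markers of the sorted cells and of other marrow cells were read in the same table. Listed were 7.69% of the stromal, 4.35% of the leukocyte, 63.6% of the neutrophil, 10% of the erythroid and 20% of the endothelial markers. Of all genes tested, 7.69% were listed in either direction, 3.91% lower and 3.77% higher. Of 13 stromal markers 1 was listed, the transcription factor gene Ebf1, with a control mean of 362.5 and a Snai2-/- mean of 210.3 per the authors' deposited table, so levels of the other 12 could not be checked. Of 23 markers of antigen-presenting cells and other leukocytes 1 was listed, the macrophage gene Adgre1, higher, with a control mean of 0.056 and a Snai2-/- mean of 0.695 per the authors' deposited table. Ptprc, which encodes CD45, and the B cell, dendritic cell and macrophage markers Cd79a, Itgax and Csf1r were not listed. Of 11 neutrophil markers 7 were listed and 7 had a higher mean, among them Ltf and Ngp, with ratios of 10.4 and 5.72 per the authors' deposited table. The summed means of those 7 were 186.4 in control and 820.1 in Snai2-/- cells. Of 10 erythroid markers 1 was listed, Car1, higher, with a control mean of 45.7 and a Snai2-/- mean of 137.1 per the authors' deposited table. Of 10 endothelial markers 2 were listed. Flt4 was higher, with a ratio of 2.09, and Vwf was lower, with a ratio of 0.0598, both per the authors' deposited table. Their summed means were 26.3 in control and 8.23 in Snai2-/- cells. The part of any of these cells in the lower means of the 7 genes was not tested.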

How the data were processed

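The authors' deposited table holds 1 row per gene for mutant against wildtype, read here as Snai2-/- against control, which are the labels' genotypes. Its columns are, per the file headers, a p-value with its step-up FDR, a ratio with a signed fold change, and a least-squares mean per group. Deposited totals and means are a normalized signal, and the sources used here give no unit for it. Per the labels' protocols, libraries were made with SMART-Seq v4 and Nextera XT. Trim Galore, HTSeq, edgeR 3.12.0 and mm10 appear in the submitters' processing notes with no role. The number of genes tested, 16718, was recovered from FDR, rank and p, matched the deposited FDR within 0.0225%, and the method was tested on simulated data.

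No model was fitted, since values of single libraries were not analysed here, so the edgeR fit planned for counts was not run. Depth is unknown and no interval can be given. Named were the 7 genes, listed genes of the histocompatibility, p200, IRG and GBP lists, the 2 with the smallest p of each other list, listed genes within 500 kb of a chosen gene, and Snai2. Other genes were named after their values were seen. Genes and lists were chosen with earlier results of these data known. List sizes count symbols present in GENCODE M21 (GRCm38, which mm10 denotes), where 1247 of 1285 listed symbols matched 1 gene. Shares of a list are thus over annotated genes, tested or not, while the 7.69% beside them is over genes tested. Promoter letters were searched on both strands in the 250 bases before each RefSeq start, and 1 further motif searched is not reported here. Python 3.11.15, numpy 2.4.6, pandas 2.3.3 and matplotlib 3.10.9 were used.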

Additional observations from a re-analysis of the deposited data

How the results depend on the processing

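The median log2 ratio of the 7 genes (-0.82) was -0.74 and -0.54 with pseudocounts of 1 and 5 on the means. It was -0.46 after centring on the median of all listed genes (a shift of -0.36) and -1.13 after centring on that of the 322 most abundant (0.31). With a minimum mean of 5 it was -0.77, the same as without H2-Eb1, and -0.89 without the 4 genes that share over 20% of their 50-base words, the last 2 chosen after seeing the data. Centring on all listed genes, the sole one of these settings that could turn a sign, left 7 of 7 below 0. A p below 0.01 left 1 of the 7, Ifi204, and an FDR below 0.05 left 0, beside 7 at an unadjusted p below 0.05. Over the pathway lists, 13 lower and 1 higher genes became 4 and 0 at p below 0.01 (median -1.08), and 0 and 0 at FDR below 0.05, with 14 at an unadjusted p below 0.05. Their median of -0.71 was -0.70 with a pseudocount of 1, -0.36 and -1.02 after the 2 centrings, and -0.64 without the 7 genes, which left 6 lower. The class II median, -0.82, changed sign to 0.083 with a minimum mean of 5, which drops H2-Eb1, and to 0.987 without the 7 genes, which leaves Ifi30 alone. No paired analysis was possible because each genotype has 1 mean in the table, and left-out replicates and a replicate block were not run for that reason. Whether 1 library decides a value is not known.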

Other observations

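Listed genes whose symbols begin with Ifi numbered 9, with 7 lower and 2 higher in Snai2-/- cells and a median log2 ratio of -0.93. The symbol is no family, since it joins p200 genes, tetratricopeptide effectors, small membrane proteins and a lysosomal reductase. Beside Ifi203 and Ifi204, the lower ones were Ifit1, Ifit2, Ifit3, Ifi27 and Ifi44. Ifit2, an antiviral effector, had a control mean of 12.6 and a Snai2-/- mean of 6.61 per the authors' deposited table. The higher ones were Ifi30 and Ifitm5. Ifitm5 encodes the osteoblast protein BRIL and had a control mean of 11.8 and a Snai2-/- mean of 96.1 per the authors' deposited table. The 9 are 26.5% of 34 such symbols in the annotation, beside 7.69% of all genes tested that were listed, and they were picked by symbol after their values were seen.

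Also within the H2- span, beyond 500 kb of any gene chosen here, Trim26 and Gabbr1 were listed with log2 ratios of -0.51 and -0.54. Trim26 encodes a tripartite motif protein of innate immunity and Gabbr1 a subunit of the GABA-B receptor.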
